A study of Mus musculus with 42 samples.

Results

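Day 7 skin wounds of diabetic mice given IL-22-Fc were compared with day 7 wounds given VEGF. IL-22-Fc is interleukin 22 joined to an antibody Fc part, and VEGF is the vascular endothelial growth factor A protein. The members were chosen from the labels of treatment and time point alone, which gave 5 IL-22-Fc arrays and 5 VEGF arrays, or 10 of the 42 arrays of the series. All were Affymetrix Mouse430V2 arrays of total RNA from the skin that surrounded the wound. In both groups a wound of 6 mm was made on day 0 in db/db females, protein was put on the wound from day 0 to day 6 on every other day, and tissue was taken on day 7. The db/db mouse lacks a working leptin receptor and is obese and diabetic. The methods give an age of 10 to 12 weeks, and the design text gives 5 mice per group. The control wounds, 5 arrays, came from db/db females of the same schedule given an inert antibody. The comparison at 24 h used 5 IL-22-Fc and 5 VEGF arrays from other mice, which had 1 dose.

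The sources do not match in several places. For the control, the labels name an antibody to ragweed, whereas the methods name a control Fc. VEGF was labelled as 20 µg and described in the methods as 50 µg, and for IL-22-Fc the design text has 20 µg where the treatment protocol has 50 µg. The strain field reads C57BL/6, while the design text and the methods name db/db mice. Dose can therefore not be told apart from the protein given in any value below. The labels do not say whether each array is 1 mouse, so the p-values measure the spread between these arrays.

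As background, IL-22 is made by lymphoid cells and acts mainly on epithelial cells, because its receptor pairs IL-22RA1, which blood and stromal cells largely lack, with the widely expressed IL-10RB. The receptor signals through STAT3, and in skin it is known for host-defence proteins and for a thickened, altered epidermis. VEGF acts on the endothelial receptor VEGFR2, the product of Kdr, and is known for the sprouting and permeability of vessels. Sprouting vessels are led by tip cells, and Notch signalling restrains the cells behind them. The pericytes and the basement membrane that then enclose the new vessel belong to its maturation.

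Levels are the log2 of the RMA intensity, and differences are IL-22-Fc minus VEGF on that log2 scale, so that a positive value is higher with IL-22-Fc. Calls required at least 1.5-fold together with an adjusted p under 0.05 (limma, Benjamini-Hochberg over all 20672 probe sets). Apart from the background level and the summed levels of lists, levels of different probe sets were not compared with each other. For 5 against 5 arrays the smallest p of a 2-sided exact permutation test is 0.00794, and every gene whose groups did not overlap reached it. The mice were female, and the probe sets of 6 genes of the Y chromosome served as a background. Their means ran from 2.58 to 5.08, the highest being Sry, and a group mean at or below 5.08 is called near background here, with the fold then given as a lower bound.

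The labelled tissue carried its markers. Keratin 10 was at 13.55 ± 0.13 (SD, n = 5) with IL-22-Fc and 13.52 ± 0.07 with VEGF, and collagen I (Col1a1) was at 13.02 ± 0.23 and 13.63 ± 0.16. A first principal component with 55.6% of the variance separated the treatments, at 25.3 to 31.3 for the IL-22-Fc arrays and -37.1 to -16.4 for the VEGF arrays. VEGF array 1 lay nearest to the IL-22-Fc arrays and stood apart on the second component (13.2% of the variance), at 30.9 against -16.0 to 4.58 for the other VEGF arrays. Values without it are given beside a result where a named gene gained its call or a list's main count moved by more than 1.5 times, and some other lists moved by a few genes. The 5′ Actb control probe set was lower with IL-22-Fc (13.19 ± 0.25 against 13.59 ± 0.05, exact permutation p = 0.0159), and the 5′ Gapdh set was higher (13.13 ± 0.12 against 12.87 ± 0.17, exact permutation p = 0.0397). With their mean as a covariate 1772 genes were called. The 2 shifts go in opposite directions and partly cancel in that mean, so this count cannot show the part of either shift.

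At day 7 1752 probe sets were called, 8.48% of those tested. 980 were higher with IL-22-Fc (4.74%) and 772 with VEGF (3.73%). At least 2-fold were 408 and 203, and at least 4-fold were 63 and 21. The median difference over all probe sets was 0.0023. The 5 arrays of one treatment all lay above the 5 of the other for 3520 probe sets (17.0%), with IL-22-Fc on top for 1886 (9.12%) and VEGF for 1634 (7.90%). Without VEGF array 1 1897 were called. The lists with the highest share of genes higher with IL-22-Fc were keratins of wounded epidermis, small proline-rich proteins, kallikreins and barrier transcription factors. Those with the highest share higher with VEGF were endothelial, pericyte and sprouting genes. Other proteins of the cornified envelope went in both directions. In bulk tissue, fewer cells of a type and less RNA per cell cannot be told apart.

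The upstream sequences of 4 genes of the epidermal differentiation complex are shown because these neighbours on chromosome 3 went in opposite directions. Sprr2f, Sprr2i and Lce3a were among the 15 genes with the largest difference toward IL-22-Fc, and Lce1m was among the 15 toward VEGF. Each is the 250 bases before the gene's start in RefSeq (GRCm38.p6), 5′ to 3′ on the gene's strand, with TATAAA in capitals. Sprr2f lies at chr3:92364937-92365186, plus strand, Sprr2i at chr3:92407741-92407990, plus strand, Lce3a at chr3:92926231-92926480, minus strand, and Lce1m at chr3:93019062-93019311, minus strand.
Sprr2f: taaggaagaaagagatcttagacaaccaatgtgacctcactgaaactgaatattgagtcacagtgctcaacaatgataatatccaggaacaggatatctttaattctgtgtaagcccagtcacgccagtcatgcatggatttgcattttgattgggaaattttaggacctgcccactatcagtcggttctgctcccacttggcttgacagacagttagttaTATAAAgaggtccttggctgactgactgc
Sprr2i: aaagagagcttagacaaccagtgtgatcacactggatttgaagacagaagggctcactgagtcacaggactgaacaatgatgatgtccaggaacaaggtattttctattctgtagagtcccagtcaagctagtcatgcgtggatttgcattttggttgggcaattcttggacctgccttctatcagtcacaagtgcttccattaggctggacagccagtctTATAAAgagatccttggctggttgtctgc
Lce3a: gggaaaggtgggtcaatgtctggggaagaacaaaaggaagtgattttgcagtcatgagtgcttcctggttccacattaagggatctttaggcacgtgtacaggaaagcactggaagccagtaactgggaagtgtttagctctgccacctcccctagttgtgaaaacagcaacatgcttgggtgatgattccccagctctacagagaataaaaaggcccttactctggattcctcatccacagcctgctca
Lce1m: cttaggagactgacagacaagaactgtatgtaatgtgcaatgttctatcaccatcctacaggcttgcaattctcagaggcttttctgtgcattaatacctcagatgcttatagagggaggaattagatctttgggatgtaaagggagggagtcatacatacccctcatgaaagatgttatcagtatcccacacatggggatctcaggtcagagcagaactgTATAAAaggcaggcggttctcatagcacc
The TATAAA begins at base -29 from the start in Sprr2f, Sprr2i and Lce1m, so it is shared across the opposite directions, and the Lce3a window has none. The small proline-rich pair held the same base at 85 of the 250 positions when aligned at the start without gaps. The other pairs of these 4 genes held 60 to 63. Without gaps, a base gained or lost shifts all bases beyond it, so the count can understate how alike the sequences are. TATAAA on either strand was in 10.4% of the 14142 genes with a window. It was in 11.8% of the 705 genes called higher with IL-22-Fc and in 13.6% of the 535 higher with VEGF. Among those called at 4-fold or more it was in 13 of 50 (26.0%) and in 4 of 17 (23.5%).

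STAT3 binds sites of the form TTCNNNGAA, which reads the same on both strands. This motif was in 7.43% of all genes with a window, in 6.52% of the 705 genes higher with IL-22-Fc and in 6.73% of the 535 higher with VEGF. Among those called at 4-fold or more it was in 1 of 50 (2.00%) and in 1 of 17 (5.88%). Of the 30 genes with the largest differences, 28 had a window and 1 held the motif. That was Fam167b, a gene higher with VEGF, shown with the motif in capitals (chr4:129578581-129578830, minus strand).
Fam167b: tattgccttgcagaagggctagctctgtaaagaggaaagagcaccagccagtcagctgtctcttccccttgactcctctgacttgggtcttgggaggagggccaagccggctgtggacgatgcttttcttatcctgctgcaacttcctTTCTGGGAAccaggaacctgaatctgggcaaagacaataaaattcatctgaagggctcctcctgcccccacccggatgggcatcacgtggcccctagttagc
Its first base lies at -102. A match is a description of these letters, and the absence of a match covers this window only.

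The difference was largest for Alox8, which oxidises arachidonic acid in epidermis. Its levels were 11.04, 11.15, 11.16, 10.89 and 11.11 in the IL-22-Fc arrays and 5.07, 3.68, 3.50, 3.67 and 3.61 in the VEGF arrays. The VEGF mean was near background, so the fold was at least 63.4 (difference 7.17, SE 0.35, limma adjusted p = 2.96e-11). Control wounds lay at 3.63 to 6.21, below every IL-22-Fc array. Defb3, a beta-defensin, was at 11.04, 11.07, 10.75, 11.26 and 11.11 with IL-22-Fc and at 9.11, 4.98, 4.17, 5.88 and 4.63 with VEGF. Here VEGF array 1 lay far above the other 4 but below every IL-22-Fc array (difference 5.29, SE 0.67, limma adjusted p = 5.26e-06).

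Sprr2i, a small proline-rich crosslinked protein of the cornified envelope, had the same shape. Its levels were 12.18, 12.46, 12.44, 12.60 and 12.80 with IL-22-Fc and 11.11, 7.53, 5.44, 8.28 and 6.78 with VEGF, a difference of 4.67 (SE 0.62). Uox, urate oxidase, was at 9.95, 9.99, 10.32, 10.08 and 10.55 with IL-22-Fc and at 8.34, 5.31, 4.36, 5.90 and 4.96 with VEGF (difference 4.40, SE 0.49). In both genes VEGF array 1 was the highest VEGF array, and the groups did not overlap. Serpinb3a, a protease inhibitor, was tight in both groups, at 9.60, 9.54, 9.45, 8.94 and 9.86 against 5.94, 5.39, 5.05, 5.29 and 5.44. Its difference was 4.06 (SE 0.23), or 16.6-fold, and the control wounds lay at 5.25 to 6.99. The other genes of the 15 largest toward IL-22-Fc were Saa1, Chil1, Sprr2f, Prss27, Sprr2j-ps, Lce3a, Fetub, Lpo, Wfdc12 and Psors1c2, with measured differences from 3.34 to 4.83. Saa1 and Lpo were near background with VEGF, so their rank is not settled.

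Krt2, a keratin of the upper epidermis, was higher with VEGF. It was at 3.03, 3.65, 3.58, 3.78 and 3.54 with IL-22-Fc, near background, and at 8.53, 7.63, 8.89, 8.93 and 9.41 with VEGF. The fold was at least 12.1 (difference -5.16, SE 0.69, limma adjusted p = 1.01e-05). Control wounds spread from 4.59 to 8.71, above every IL-22-Fc array. Mt4, a metallothionein of stratified epithelia, was at 5.35, 4.86, 6.72, 6.71 and 5.34 with IL-22-Fc and at 8.98, 9.47, 9.78, 9.53 and 10.41 with VEGF. Its difference was -3.84, the largest toward VEGF among genes above background in both groups, and its controls, at 9.38 to 10.78, lay with the VEGF arrays.

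The vessel genes stood the other way to the control. Esm1, which encodes endocan and marks tip cells, was at 5.37, 5.77, 5.43, 5.47 and 5.57 with IL-22-Fc and at 9.36, 8.85, 8.87, 8.35 and 8.06 with VEGF (difference -3.18, SE 0.20, limma adjusted p = 9.41e-10). Controls lay at 4.94 to 5.90, with the IL-22-Fc arrays. Kcne3, a potassium channel subunit, was near background with IL-22-Fc (4.01 to 4.58) and at 8.68, 8.01, 7.24, 7.43 and 6.80 with VEGF, at least 5.84-fold higher. Aplnr, the apelin receptor of vessel cells, was at 9.22, 8.47, 8.43, 8.54 and 9.03 against 11.53, 11.39, 11.13, 11.13 and 10.89 (difference -2.48, SE 0.16). The remaining genes of the 15 largest toward VEGF were Lce1m, Krt77, Tmem255a, Pcdh17, Col13a1, Gimap4, Fam167b, Mest, Serpina12 and Emcn, with measured differences from -2.82 to -2.15. Tmem255a and Pcdh17 were near background with IL-22-Fc, so only a bound of at least 3.05-fold and 4.74-fold holds for them and their rank is not settled.

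**Figure D1:**
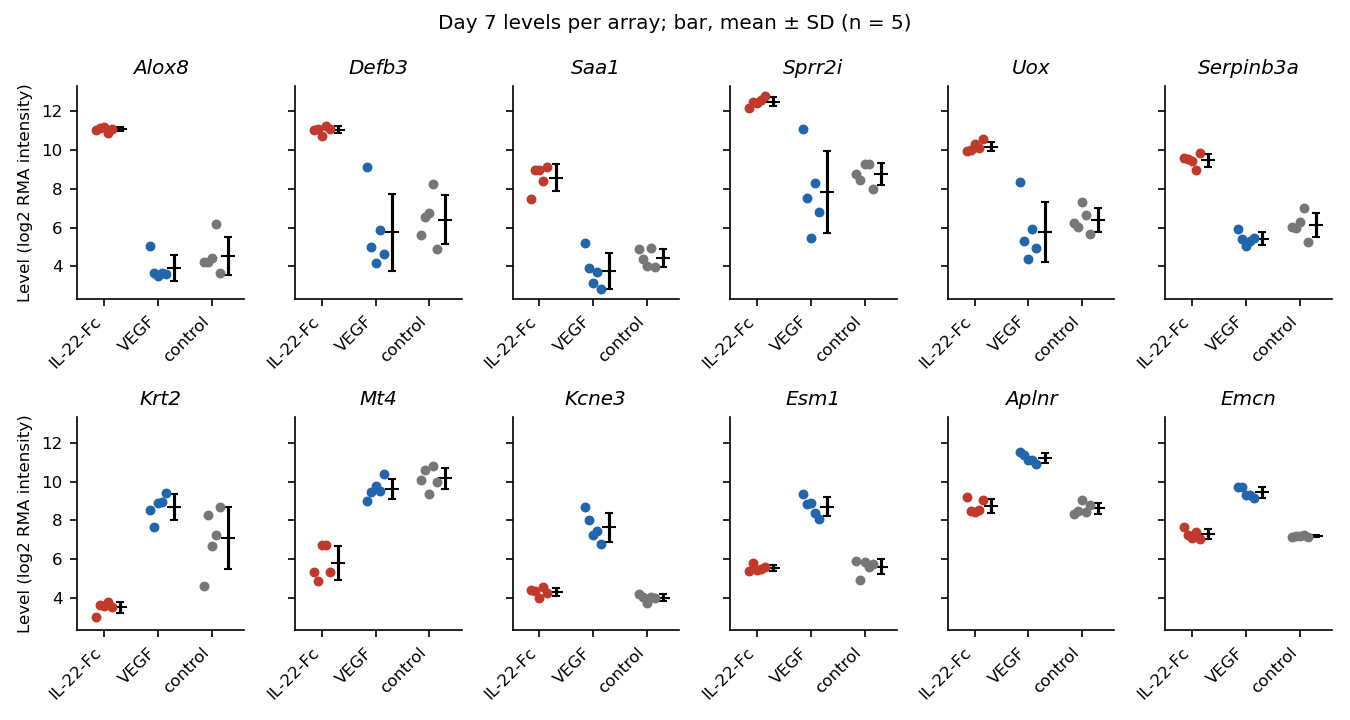
Level (log2 RMA intensity) per array at day 7 for 6 genes higher with IL-22-Fc (top) and 6 higher with VEGF (bottom), in IL-22-Fc, VEGF and control wounds. Points are arrays and bars are the mean ± SD (n = 5). Controls lie near the VEGF arrays for Alox8 and Mt4 and with the IL-22-Fc arrays for Kcne3, Esm1, Aplnr and Emcn.

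Whole lists of genes are described by their counts. They were chosen with earlier results of these data known and hold many of the genes above, so they are not separate evidence. The share of members called ranged from 0 to 100%, beside 8.48% over all probe sets.

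**Figure D2:**
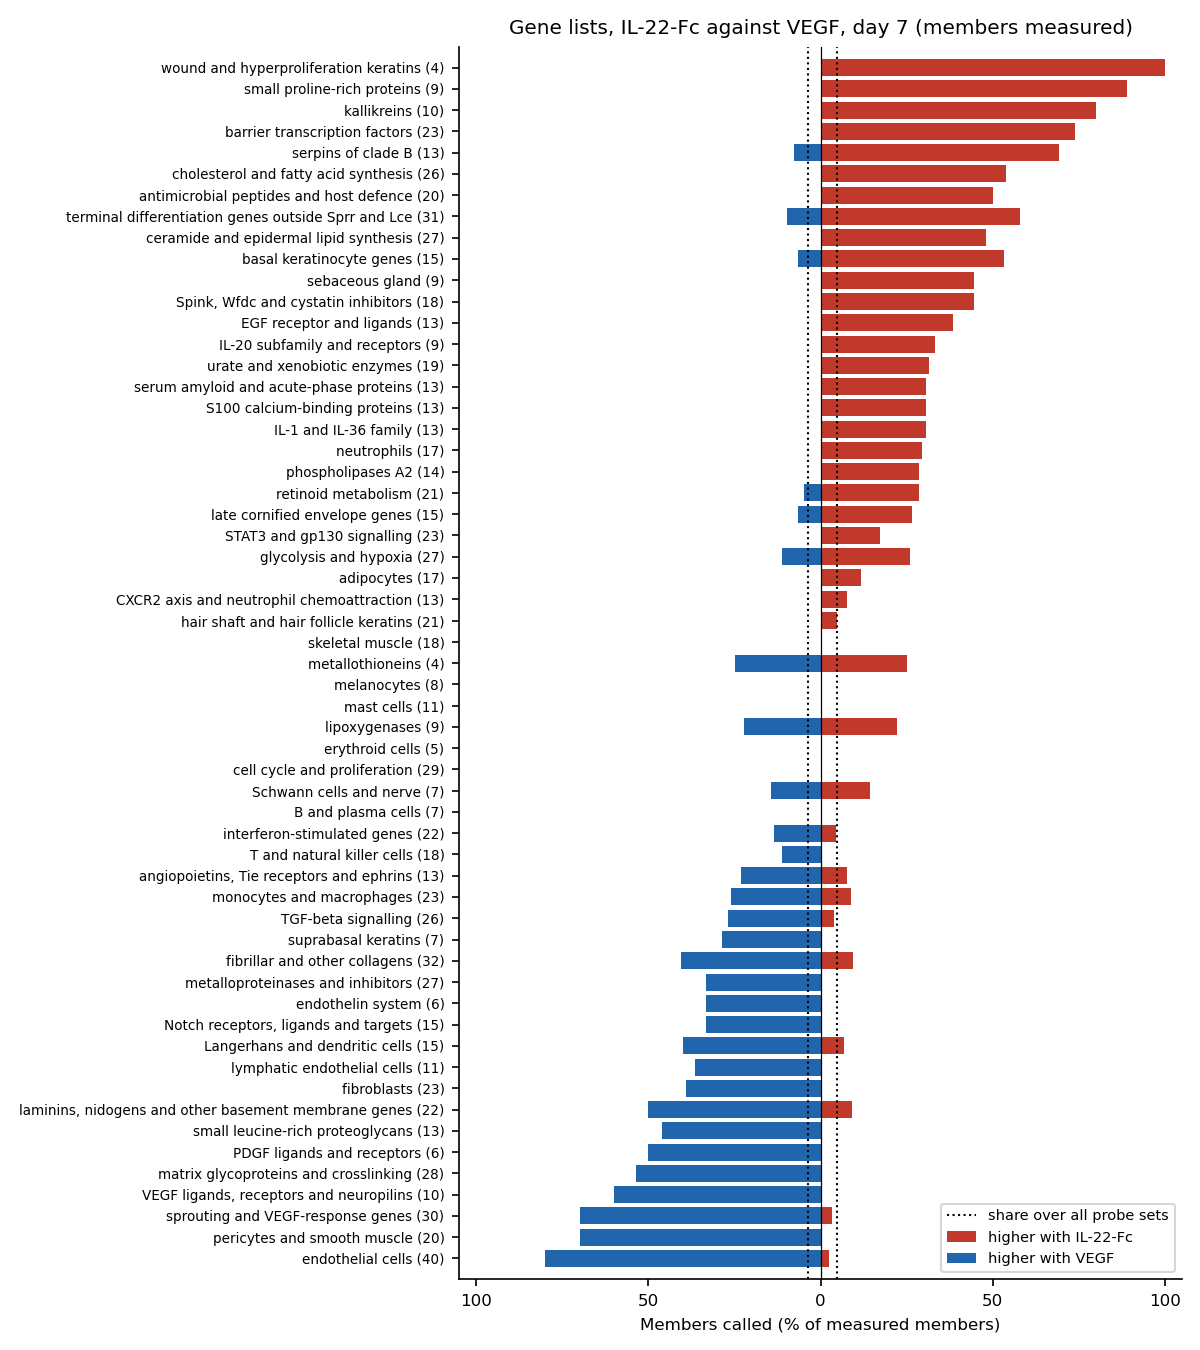
Percent of the measured members of each list called higher with IL-22-Fc (red, to the right) or with VEGF (blue, to the left) at day 7, with the number measured in brackets. Dotted lines mark the share over all probe sets, 4.74% and 3.73%. Most keratinocyte lists lie mainly on the right, the suprabasal keratins only on the left, and the vessel and matrix lists mainly on the left.

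Host-defence genes were higher with IL-22-Fc. Of 20 antimicrobial and host-defence genes measured 10 were called higher and 0 lower, with a median difference of 1.12. Lcn2, an iron-chelator carrier, was at 11.22 ± 0.23 against 9.03 ± 0.79 (difference 2.19), and Defb1 was at 11.07 ± 0.13 against 9.24 ± 0.20 (1.83). Defb4 was near background with VEGF and at least 1.90-fold higher with IL-22-Fc, where it ran from 4.71 to 7.18. The calprotectin pair rose in all IL-22-Fc arrays above all VEGF arrays. S100a9 was at 14.41, 14.39, 14.34, 14.39 and 14.45 against 13.61, 12.89, 11.44, 12.81 and 11.52 (difference 1.94, SE 0.30). S100a8 differed by 1.19 (SE 0.21). Lpo, lactoperoxidase, was near background with VEGF and at least 6.13-fold higher with IL-22-Fc.

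Of 13 serum amyloid and acute-phase genes 4 were called higher with IL-22-Fc and none with VEGF. Saa1 was at 7.46, 8.98, 8.96, 8.40 and 9.10 against 5.19, 3.89, 3.12, 3.72 and 2.82, and the fold was at least 11.3. Fetub, a protease inhibitor of the fetuin family, differed by 3.66, and Orm1, an orosomucoid, by 2.03. Saa2 was called with both means near background, so no fold is given. Saa3 was not called, at 11.56 ± 0.67 against 12.10 ± 0.74 (limma adjusted p = 0.253). The members of this list thus split between strong differences and none detected.

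Of 13 genes of the interleukin 1 and interleukin 36 family 4 were higher with IL-22-Fc. Without VEGF array 1 the count was 7. The 3 interleukin 36 agonists, keratinocyte cytokines named Il1f6, Il1f8 and Il1f9 in the file, were among the 4. Il1f6 was at 10.38, 9.81, 10.07, 9.82 and 10.18 against 8.28, 7.90, 7.09, 7.63 and 7.21 (difference 2.43, SE 0.27). Il1f9 differed by 1.90 and Il1f8 by 1.68, and in each the groups did not overlap. Control wounds lay between the treatments, with a mean of 8.98 ± 0.71 for Il1f6.

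Kallikreins and protease inhibitors of several families were higher with IL-22-Fc. Metalloproteinases and their inhibitors, given below, held no gene higher with IL-22-Fc. Of 10 kallikreins, the serine proteases that cut corneodesmosomes in the shedding of skin, 8 were called higher with IL-22-Fc and 0 lower (median 1.27). Klk9 was at 10.29 ± 0.14 against 8.08 ± 0.47 (difference 2.21), Klk11 differed by 1.81, Klk6 by 1.60, Klk12 by 1.54 and Klk8 by 1.19. Prss27, a membrane-anchored serine protease, differed by 3.93 (10.29 ± 0.09 against 6.37 ± 1.04). Of the inhibitors, 9 of 13 clade B serpins were higher with IL-22-Fc and 1, Serpinb9, an inhibitor of granzyme B, was near background with IL-22-Fc and at least 1.61-fold higher with VEGF. Serpinb11 differed by 2.04 and Serpinb12 by 1.60. Serpinb2, a plasminogen activator inhibitor, differed by 1.75 but overlapped, because VEGF array 1, at 13.37, lay above all IL-22-Fc arrays (12.06 to 12.70). Of 18 Spink, Wfdc and cystatin inhibitors 8 were higher and 0 lower. Wfdc12 differed by 3.40, Spink12 by 3.27, Stfa3 by 1.88 and Wfdc5 by 1.85.

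The proteins of the cornified envelope, the crosslinked shell of the dead keratinocyte, did not move as 1 group. 8 of 9 small proline-rich genes were higher with IL-22-Fc and 0 lower (median 2.43), among them Sprr2d by 3.04 (13.58 ± 0.15 against 10.54 ± 1.31). The Sprr2 genes are close paralogs, so a probe set can take up signal from its neighbours. Of 15 late cornified envelope genes 4 were higher with IL-22-Fc, all of the Lce3 subgroup: Lce3a by 3.80, Lce3b by 2.72, Lce3c by 2.59 and Lce3f by 2.40. The 1 late cornified envelope gene higher with VEGF was Lce1m, at 4.97, 5.61, 5.47, 5.42 and 5.49 with IL-22-Fc and 7.84, 8.23, 8.42, 7.70 and 8.85 with VEGF (difference -2.82, SE 0.21).

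Of 31 other terminal differentiation genes 18 were higher with IL-22-Fc and 3 with VEGF (median 0.96). Cnfn, cornifelin, was at 11.90 ± 0.05 against 9.18 ± 0.76 (difference 2.73). Tgm3, the transglutaminase that crosslinks envelope proteins, differed by 2.67, and Dsc1, a desmosomal cadherin of the upper layers, by 1.99. Tchh, trichohyalin, was near background with VEGF and at least 2.91-fold higher with IL-22-Fc. The 3 genes higher with VEGF were the major structural proteins loricrin, filaggrin and involucrin. Lor was at 11.23, 10.54, 10.96, 10.96 and 10.58 with IL-22-Fc and at 12.41, 12.55, 12.58, 12.60 and 12.84 with VEGF (difference -1.74, SE 0.12, limma adjusted p = 1.4e-09). Flg differed by -1.22 without overlap. Ivl differed by -1.28 and overlapped, as VEGF array 1 (5.72) lay within the IL-22-Fc range of 5.34 to 5.94. The control wounds were higher still for all 3, with means of 13.30 ± 0.13, 11.41 ± 0.29 and 7.79 ± 0.11.

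The keratins divided in a like way. All 4 keratins of wounded and hyperproliferating epidermis were higher with IL-22-Fc. Krt16 was at 14.20 ± 0.03 against 12.70 ± 0.69 (difference 1.49), Krt17 differed by 1.44, Krt6a by 1.22 and Krt6b by 0.67. Krt6b was below 1.5-fold without VEGF array 3 (0.55) or 5 (0.58) and after quantile normalization (0.42). Of 7 suprabasal keratins 0 were called higher with IL-22-Fc and 2 were called higher with VEGF, Krt2 and Krt77. The list did not move as a whole. Krt1 was higher with IL-22-Fc by 0.45 (limma adjusted p = 4.95e-05), under 1.5-fold. The summed level of this list was 14.64 to 14.89 with IL-22-Fc and 14.59 to 14.79 with VEGF. Krt77 was at 8.80 ± 0.62 against 11.46 ± 0.39, with controls at 12.39 ± 0.11. Of 15 basal keratinocyte genes 8 were higher with IL-22-Fc, among them Krt14 by 1.15 and Krt5 by 0.87, and Krt15, a keratin of basal and follicle stem cells, was higher with VEGF by 0.90. The summed level of the basal keratinocyte list was 14.11 to 14.24 in the IL-22-Fc arrays and 13.58 to 13.96 in the VEGF arrays. Its part in the differences of the other keratinocyte genes was not tested.

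**Figure D3:**
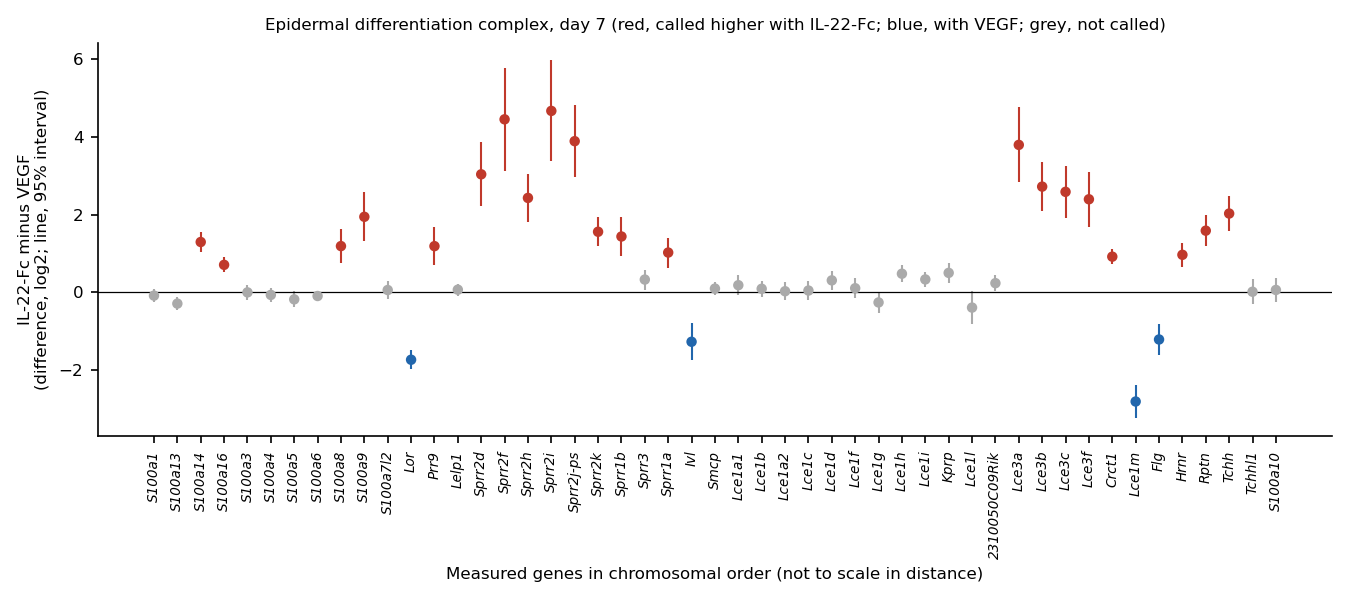
Difference IL-22-Fc minus VEGF at day 7 (log2, points, with 95% intervals as lines) for the 49 measured genes of the epidermal differentiation complex in chromosomal order, distances not to scale. Sprr2 and Lce3 genes lie above 0, Lor, Ivl, Lce1m and Flg below, and most Lce1 genes near 0.

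The choice of arrays did not use position. Many of the genes counted here by position are those of the lists above, so these counts are not separate evidence. Between S100a10 and S100a1 on chromosome 3, the epidermal differentiation complex, 21 of 49 measured genes were higher with IL-22-Fc and 4 with VEGF, or 51.0% called beside 8.48% over all probe sets. The stretch Lce1a1 to Lce1l had 0 calls. Of the 7 measured genes from Serpinb5 to Serpinb8 on chromosome 1 all 7 were higher with IL-22-Fc. Along the kallikrein genes on chromosome 7, 8 of 19 were higher and 0 lower. The type I keratins on chromosome 11 had 3 of 31 higher with IL-22-Fc and 1 with VEGF, and the type II keratins on chromosome 15 had 4 of 24 and 2.

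Transcription factors of epidermal differentiation were higher with IL-22-Fc in 17 of 23 cases and lower in 0 (median 0.96). Ehf, an epithelial Ets factor, was at 9.07, 9.24, 9.39, 9.09 and 9.17 against 7.37, 7.01, 6.79, 6.80 and 6.76 (difference 2.25, SE 0.12). Grhl3, a grainyhead factor needed for barrier formation, differed by 1.70, Ovol1 by 1.56, and Tfap2c by 1.49. The groups did not overlap for these 4 genes.

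Of 13 genes of the EGF receptor family and its ligands 5 were higher with IL-22-Fc and 0 lower. The ligand epigen (Epgn) was at 9.21 ± 0.65 against 6.64 ± 1.46 (difference 2.57) and overlapped through VEGF array 1, at 8.80. Tgfa differed by 1.51 and the receptor Erbb3 by 1.44, both without overlap. Hbegf differed by 1.32 and overlapped, again through VEGF array 1, at 8.95.

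The receptors of the IL-20 subfamily were measured on both sides of the IL-22 pathway. Il22ra1, the signalling chain, was at 6.44, 6.42, 6.23, 6.29 and 6.17 with IL-22-Fc and at 5.25, 5.21, 4.74, 4.96 and 5.12 with VEGF, at least 2.34-fold. The control wounds, at 5.65 to 6.29, lay nearer to the IL-22-Fc arrays. Il22ra2, the soluble receptor that binds and neutralises IL-22, was higher with IL-22-Fc by 1.47 and Il20ra by 0.71. Il10rb, the shared second chain and chosen after its values were seen, was not called, at 5.20 ± 0.18 against 5.38 ± 0.24 (limma adjusted p = 0.268). Of 9 genes of this subfamily 3 were called, all higher with IL-22-Fc.

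Of 23 genes of STAT3 and gp130 signalling 4 were called, all higher with IL-22-Fc, and without VEGF array 1 the count was 8. Stat3 itself was at 10.45 ± 0.07 against 9.84 ± 0.26 (difference 0.62), just past the threshold. Without VEGF array 3 its difference was 0.58 and without VEGF array 5 0.56, below 1.5-fold. Junb differed by 0.96, Osmr, the oncostatin M receptor, by 0.75, and Socs1 by 0.60. Junb and Osmr overlapped through VEGF array 1, at 10.01 and 10.58. Socs1 was below 1.5-fold without IL-22-Fc array 1 or 3 or VEGF array 3 or 5 (0.49 to 0.57). Socs3, the feedback inhibitor of STAT3 signalling and chosen after its values were seen, was at 10.27 ± 0.23 against 9.35 ± 1.21 and was not called (limma adjusted p = 0.0797). VEGF array 1 was at 11.46 for Socs3 and the other 4 at 8.49 to 9.27. Without it the difference was 1.45 (limma adjusted p = 1.59e-06).

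Enzymes of epidermal lipids were higher with IL-22-Fc. Of 27 genes of ceramide and epidermal lipid synthesis 13 were higher and 0 lower (median 0.55). Degs2, which hydroxylates sphingolipids, differed by 1.92 (9.40 ± 0.14 against 7.48 ± 0.64), Cers3, the ceramide synthase of very long chains, by 1.60, and Sdr9c7 by 1.37. Elovl7, a fatty acid elongase, was tight, at 10.64 ± 0.02 against 9.52 ± 0.11. Of 26 genes of cholesterol and fatty acid synthesis 14 were higher and 0 lower (median 0.61). Sqle, squalene epoxidase, was at 10.53, 10.63, 10.67, 10.76 and 10.66 against 9.53, 9.50, 9.44, 9.54 and 9.38 (difference 1.17, SE 0.08). Idi1 differed by 1.05, Fdft1 by 1.01 and Cyp51 by 0.81. The control means of these sterol genes, such as 10.33 ± 0.15 for Sqle, lay nearer to IL-22-Fc.

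Of 14 phospholipases A2, which release arachidonic acid from membranes, 4 were higher with IL-22-Fc and 0 lower. Pla2g4e differed by 2.20 and Pla2g4f by 1.35, and Pla2g4d was near background with VEGF and at least 2.29-fold higher. Of 9 lipoxygenases Alox8 and Alox12b, an enzyme of the lipid barrier (difference 1.91), were higher with IL-22-Fc, and 2 were higher with VEGF, of which Alox12e differed by -1.26. In retinoid metabolism 6 of 21 genes were higher with IL-22-Fc and 1 with VEGF. Rdh16, a retinol dehydrogenase, was at least 1.44-fold higher with IL-22-Fc, and Lrat, which esterifies retinol, was at 7.06 ± 0.25 against 5.56 ± 0.51. Glucose transporter 1 (Slc2a1) differed by 1.15 and the prolyl hydroxylase Egln3 by 2.01, and 7 of 27 genes of glycolysis and hypoxia were higher with IL-22-Fc. The 3 higher with VEGF included Adm, adrenomedullin, a vasodilator, by 1.72.

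Endothelial genes were higher with VEGF almost throughout. Of 40 measured 32 were higher with VEGF and 1 with IL-22-Fc, with a median difference of -1.25. Without VEGF array 1 the counts were 31 and 1. Kdr, the VEGF receptor, was at 6.74, 6.71, 6.55, 6.69 and 6.38 with IL-22-Fc and at 8.74, 8.50, 8.23, 8.18 and 7.99 with VEGF (difference -1.71, SE 0.11, limma adjusted p = 1.03e-09). Pecam1, the endothelial adhesion molecule CD31, was at 7.68, 7.40, 7.39, 7.52 and 7.39 against 9.13, 9.00, 8.71, 8.91 and 8.69 (difference -1.41, SE 0.10). Neither gene's groups overlapped, and the control wounds lay with IL-22-Fc, at 6.69 to 6.84 for Kdr. Emcn, endomucin, differed by -2.15, Icam2 by -1.79 and Gpihbp1, the capillary anchor of lipoprotein lipase, by -1.75. Myct1 was near background with IL-22-Fc and at least 3.76-fold higher with VEGF. The exception was Vwf, von Willebrand factor, higher with IL-22-Fc by 0.69, at 6.54 to 6.79 against 5.88 to 6.10. The VEGF arrays lay below the controls for this gene (6.54 to 7.05).

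Of 30 sprouting and VEGF-response genes 21 were higher with VEGF and 1 with IL-22-Fc (median -0.96). Pcdh17, a protocadherin, was near background with IL-22-Fc and at least 4.74-fold higher with VEGF. Egr3, an immediate early factor, was the gene higher with IL-22-Fc, by 1.23 (10.25 ± 0.13 against 9.02 ± 0.23). Of 10 VEGF ligands and receptors 6 were higher with VEGF and 0 lower. Flt1, which encodes VEGFR1, differed by -1.62, Flt4, the receptor of VEGF-C and VEGF-D, by -1.09 and the ligand Vegfd by -0.96. Vegfa itself was not called, at 7.45 ± 0.12 against 7.02 ± 1.02 (limma adjusted p = 0.391). Its VEGF arrays were at 8.68, 5.95, 6.49, 7.00 and 6.98, and without the first the difference was 0.85 (limma adjusted p = 0.00424), higher with IL-22-Fc.

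Of 15 Notch receptors, ligands and targets 5 were higher with VEGF and 0 lower. Notch4, the endothelial receptor, was at 6.56, 6.39, 6.23, 6.47 and 6.60 against 8.36, 8.38, 8.13, 8.17 and 8.05 (difference -1.77, SE 0.10). The tip-cell ligand Dll4 differed by -1.07 and the targets Hey1 and Heyl by -1.16 and -1.13. Of 13 genes of angiopoietins, Tie receptors and ephrins 3 were higher with VEGF and 1, the ephrin receptor Epha2, was higher with IL-22-Fc (0.79). The receptors Tie1 (-1.68) and Tek (-1.36) and the destabilising ligand Angpt2 (-1.27) were higher with VEGF. Of 6 endothelin genes 2 were higher with VEGF, the ligand Edn1 by 0.93 and the receptor Ednrb by 0.84. The groups did not overlap for Epha2 or any of the 9 genes higher with VEGF.

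Pericyte and smooth muscle genes were higher with VEGF in 14 of 20 cases and lower in 0 (median -0.92). Rgs5, a marker of pericytes, was at 8.44, 8.23, 8.18, 8.09 and 8.00 against 10.57, 10.41, 10.36, 9.73 and 10.40 (difference -2.10, SE 0.16). Higd1b was near background with IL-22-Fc and at least 4.44-fold higher with VEGF, Mcam differed by -1.68, and Abcc9, the regulatory subunit of a vascular potassium channel, was at least 2.77-fold higher. Of 6 PDGF ligands and receptors 3 were higher with VEGF. They were the ligand Pdgfb (-1.10), which recruits pericytes, its receptor Pdgfrb (-0.97) and the ligand Pdgfd, near background with IL-22-Fc and at least 1.70-fold higher with VEGF.

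Of 22 basement membrane genes 11 were higher with VEGF and 2 with IL-22-Fc (median -0.65). Nid2 was at 7.97 ± 0.25 against 9.73 ± 0.32 (difference -1.77), Col4a1 at 11.49 ± 0.15 against 12.84 ± 0.12 (-1.35), Col15a1 differed by -1.33 and Col18a1, the source of endostatin, by -1.05. The 2 genes higher with IL-22-Fc encode chains of the main epidermal laminin and were Lamb3 (0.80) and Lama3 (0.76). The groups overlapped for both. Lama3 was not called without any one of IL-22-Fc arrays 2 and 4 and VEGF arrays 3 and 5, with differences of 0.58 to 0.70.

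Of 32 other collagens 13 were higher with VEGF and 3 with IL-22-Fc (median -0.35). Col13a1 differed by -2.50, Col11a1 by -1.48 and Col14a1 by -1.39. Col1a1 differed by -0.61, and without IL-22-Fc array 1 or 2 or VEGF array 4 it was below 1.5-fold (-0.58 to -0.53). Of 28 matrix glycoproteins and crosslinking enzymes 15 were higher with VEGF and 0 lower (median -0.65). Fbn2, a fibrillin, was at 8.45, 8.45, 8.37, 8.39 and 8.95 against 10.09, 10.02, 10.34, 10.15 and 10.60 (difference -1.72). Mgp, matrix Gla protein, differed by -1.72, Sparcl1 by -1.30 and Eln, elastin, by -1.16. Among 13 small leucine-rich proteoglycans 6 were higher with VEGF, with Omd at -1.37 and Ogn at -1.30, and among 27 metalloproteinases and inhibitors 9, with Mmp12, the macrophage elastase, at -1.49. Without VEGF array 1 the last count was 6. These last 3 lists held no gene higher with IL-22-Fc.

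The summed levels of the vessel lists use the same genes as the counts above, so they are not separate evidence. Each sum is the log2 of the added linear intensities and follows the brightest genes. For the 40 endothelial genes it was 12.57 to 12.66 in the IL-22-Fc arrays and 13.66 to 14.03 in the VEGF arrays. For the 20 pericyte and smooth muscle genes it was 13.36 to 13.61 and 14.15 to 14.37. Of 23 fibroblast markers 9 were higher with VEGF and 14 were not called, and the sum was 15.86 to 16.14 and 16.32 to 16.58. Whether the share of these cells differed was not tested.

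Leukocyte genes went in both directions. Of 17 neutrophil genes 5 were higher with IL-22-Fc and 0 lower. They included Stfa2l1, a stefin, by 2.27 (12.42 ± 0.11 against 10.15 ± 0.87), the calprotectin pair, which keratinocytes also make, and Cxcr2, the receptor of neutrophil chemokines, at 7.25, 7.53, 7.56, 7.13 and 7.33 against 6.88, 5.78, 5.62, 6.30 and 5.80. The granulocyte receptor Csf3r was not called, at 7.55 ± 0.21 against 7.62 ± 0.41 (limma adjusted p = 0.839). The summed level of the list was 15.54 to 15.67 with IL-22-Fc and 13.37 to 15.07 with VEGF. That sum adds linear intensities and rests largely on the calprotectin pair, with means of 14.25 and 14.40 with IL-22-Fc. The median difference of the list was 0.30, and 12 of its members were not called. Of 13 genes of neutrophil chemoattraction 1 was called, and without VEGF array 1 the count was 4.

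Of 23 monocyte and macrophage genes 6 were higher with VEGF and 2 with IL-22-Fc (median -0.52). Adgre1, which encodes F4/80, was higher with VEGF by 0.65. Without IL-22-Fc array 1 or VEGF array 2 its difference was -0.58, under 1.5-fold. Chil3 (1.40) and Arg1 (1.20), made by alternatively activated macrophages, were the 2 higher with IL-22-Fc. Arg1 overlapped, at 11.11 to 12.25 against 9.51 to 12.57, and kept its call only without IL-22-Fc array 3 or 5 or VEGF array 1 of the 10 arrays left out in turn. Of 15 Langerhans and dendritic cell genes 6 were higher with VEGF. These were led by Itgax, which encodes CD11c (-1.07), and held the class II genes H2-Eb1 (-0.83) and H2-Aa (-0.74). Cd207, the defining gene of Langerhans cells, was at 6.63 ± 0.25 against 6.68 ± 0.16, and the 1 gene higher with IL-22-Fc, Epcam (0.70), is also made by keratinocytes.

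The remaining lists differed in how many members were called. Of 29 cell cycle genes 0 were called at day 7 in either direction (limma, median -0.0081). The 11 mast cell, 18 skeletal muscle, 8 melanocyte, 7 B and plasma cell and 5 red cell genes had 0 calls, and of 17 adipocyte genes 2 were called, both higher with IL-22-Fc. Without VEGF array 1 the mast cell and skeletal muscle lists each had 1 call, higher with IL-22-Fc, and the adipocyte list had 1 in each direction. Of 9 sebaceous genes 4 were higher with IL-22-Fc (44.4%), and without VEGF array 1 the counts were 3 and 1 higher with VEGF. Of 22 interferon-stimulated genes 3 were higher with VEGF and 1 with IL-22-Fc, and without VEGF array 1 the counts were 5 and 0. A count of 0 shows only that no member passed the threshold.

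The control wounds show on which side of them each treatment lay. Both contrasts use the same 5 control arrays and are given side by side. For the 40 endothelial genes the median difference from control was 0.0016 with IL-22-Fc and 1.22 with VEGF, and for the 30 sprouting genes -0.05 and 0.87. For the small proline-rich genes it was 1.45 with IL-22-Fc and -0.74 with VEGF, and for the kallikreins 0.66 and -0.58. In lipid synthesis the medians were 0.09 and -0.55 for ceramide genes and 0.04 and -0.56 for cholesterol genes. Both lists lay close to the control with IL-22-Fc and below it with VEGF. Several keratinocyte lists also lay further from the control with VEGF. The medians were 0.06 and -0.55 for basal keratinocyte genes and 0.11 and -0.76 for other terminal differentiation genes. For barrier transcription factors they were 0.26 and -0.66, and for clade B serpins 0.28 and -0.83. Host-defence genes (0.77 and -0.20) and wound keratins (0.63 and -0.57) lay further from the control with IL-22-Fc. Fibroblast genes had medians of -0.36 and 0.24.

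**Figure D4:**
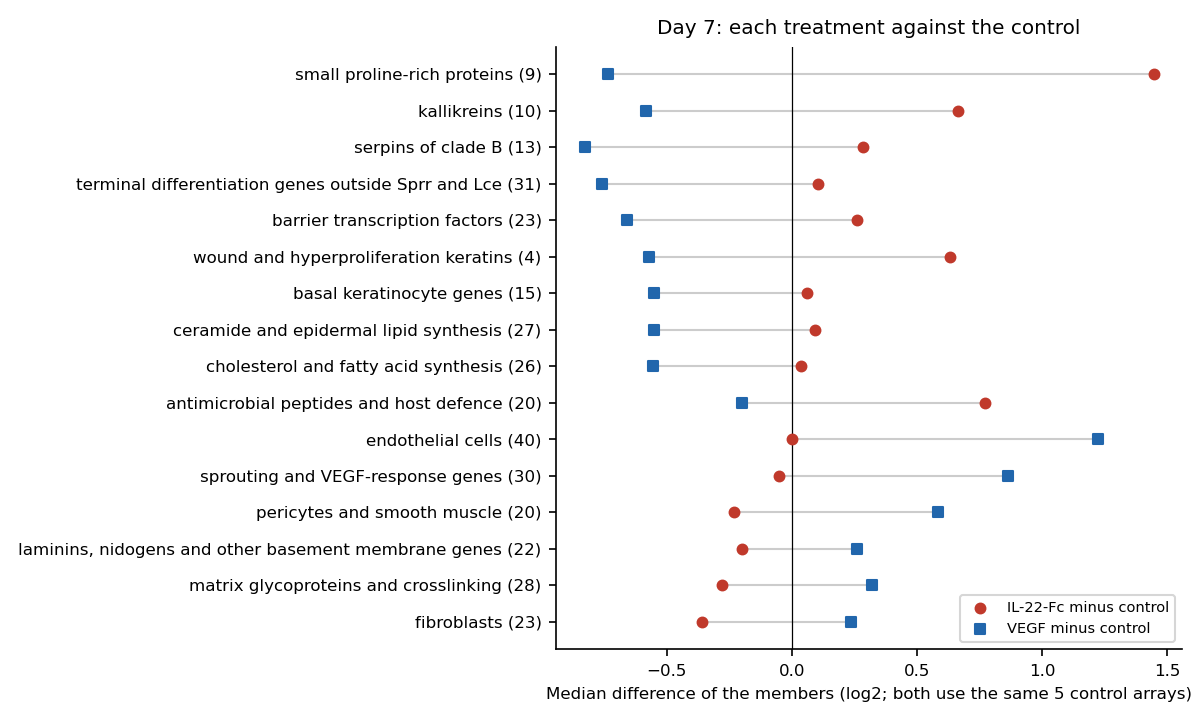
Median difference from control wounds at day 7 (log2) over the measured members of 16 lists, for IL-22-Fc (red circles) and VEGF (blue squares), with the number of members in brackets. The endothelial list lies at 0.0016 and 1.22, and the small proline-rich list at 1.45 and -0.74.

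At 24 h, after 1 dose and in other mice, 89 probe sets were called (0.431%), 26 higher with IL-22-Fc (0.126%) and 63 with VEGF (0.305%). An unadjusted p under 0.05 was reached by 1539. Of the 980 genes higher with IL-22-Fc at day 7, 20 were called the same way at 24 h (2.04%) and 6 the opposite way, and of the 772 higher with VEGF 27 (3.50%) and 1. Read from the other side, 20 of the 26 (76.9%) and 27 of the 63 (42.9%) were called the same way at day 7. Alox8 already differed by 3.80 at 24 h (limma adjusted p = 7.32e-06) and Chil1 by 2.51. Lce1m differed by -2.16, Serpina12 by -2.81 and Lor by -1.32, all higher with VEGF as at day 7. Of the late cornified envelope genes 6 were higher with VEGF at 24 h.

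The difference between the times was itself tested, day 7 minus 24 h, and 1608 probe sets were called (7.78%). Of these 963 were more positive at day 7 (4.66%) and 645 more negative (3.12%). Defb3 had a difference of 0.64 at 24 h and moved by 4.65 (limma adjusted p = 0.000335). Sprr2f moved by 3.91, Uox by 3.69, Serpinb3a by 3.44, Lce3a by 3.39 and Alox8 by 3.36. Toward VEGF, Krt2 moved by -4.62, Esm1 by -3.30, Kcne3 by -2.87, Tmem255a by -2.70 and Aplnr by -2.48. Krt2, Kcne3 and Tmem255a were near background with IL-22-Fc at day 7, and Alox8 with VEGF, so the sizes of these 4 and their rank rest on values at background. Esm1 and Aplnr had differences of 0.12 and 0.00 at 24 h. Abcb1a, a drug efflux pump of vessels, turned direction, from 1.06 at 24 h (limma adjusted p = 0.0056) to -1.48 at day 7 (limma adjusted p = 1.22e-07), where it was near background with IL-22-Fc.

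**Figure D5:**
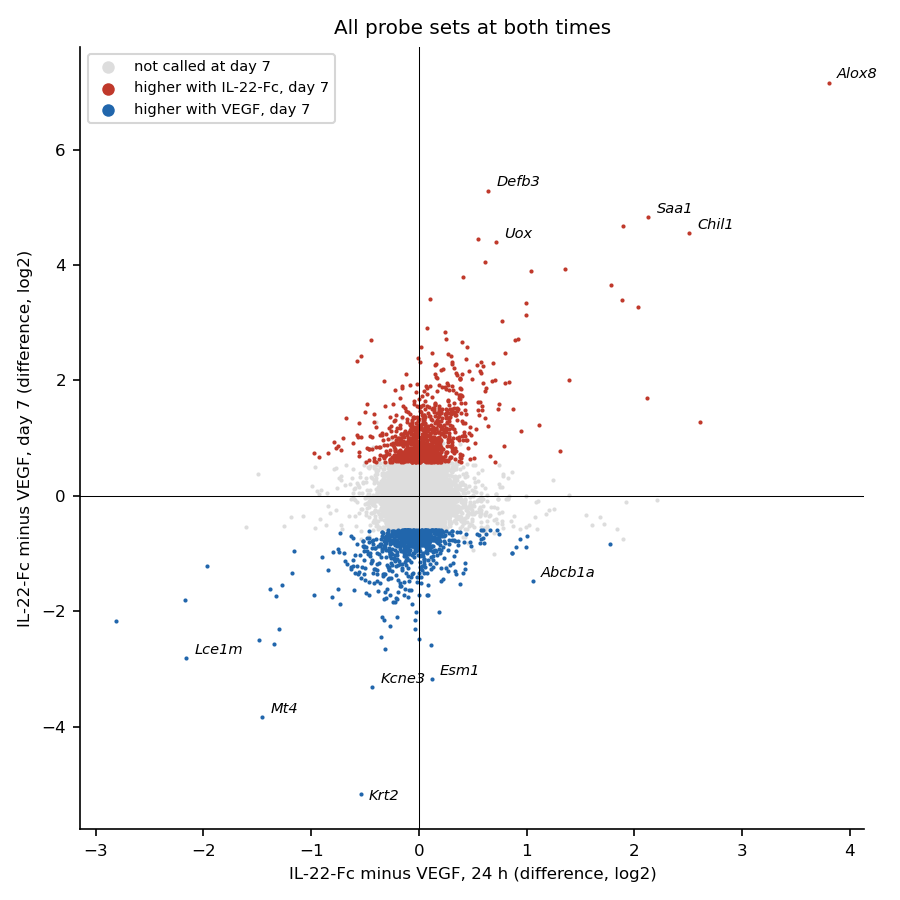
Difference IL-22-Fc minus VEGF (log2) at 24 h (horizontal) and at day 7 (vertical) for all probe sets, red where called higher with IL-22-Fc at day 7, blue with VEGF and grey where not called. Alox8 is far from 0 at both times, Esm1 and Krt2 differ at day 7, and Abcb1a changes sign.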

How the data were processed

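Total RNA of wounds and skin was hybridised to Affymetrix Mouse430V2 arrays, and 42 arrays were deposited together in a single matrix. The authors summarised the probes by RMA and kept for each gene the probe set of highest variance. The deposited values are intensity on a linear scale, for 20672 probe sets, and log2 of them was taken here. Array medians were 49.4 to 52.6 on the linear scale. Of the probe sets 17928 carried 1 gene symbol, 79 several and 2665 none. The number of arrays limits the precision. The matrix gave no comparison columns, and the versions of RMA and limma used by the authors are not given in the sources used here.

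Groups were taken from the titles and treatment labels. Contrasts were fitted with limma 3.58.1 (R 4.3.3) on the 18 arrays of day 7, without covariates, and on the arrays of both times for the difference between times. A call needed a Benjamini-Hochberg adjusted p under 0.05 over all probe sets and at least 1.5-fold. Exact permutation tests over 252 arrangements were 2-sided. On simulated data with 20672 probe sets the day 7 test found 28 of 67 changes of 1.5-fold (41.8%) and 63 of 67 of 2-fold (94.0%). It found 66 of 66 of 4-fold, with 1 false call. Of the 1.5-fold changes 79.1% passed the adjusted p, so much of their loss came from the fold threshold, which lies at that size. The simulation used independent normal noise and 200 changed probe sets, without an array that stood apart. R read the matrix with the data.table package (version 1.17.8), and sequences and plots were made with Python 3.11.15, pandas 2.3.3 and matplotlib 3.10.9. Promoter sequences came from RefSeq (GRCm38.p6).

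The gene lists, their members and the named genes were chosen with earlier results of these data known, and the arrays by their labels. The named genes were the 15 largest differences in each direction among called genes without overlap, genes the study names for the arrays, up to 4 called members of a list in each direction and up to 2 not called, the 6 largest differences between times in each direction, and defining cell markers. Il10rb, Socs3 and the gene families of the closing section were chosen after their values were seen. The alternatives changed the arrays in the fit, the normalization, the offset, the filters, the array weights, the variance model, the thresholds, the test and a 5′ covariate, and left out each array in turn. An item withheld from this text is not reported here.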

Additional observations from a re-analysis of the deposited data

Results flagged for a closer look

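Among 179 named genes, the 5 arrays of each treatment gave 358 groups, and in 24 of them 1 array lay far from the other 4. Chance gives about 1 in 20 such groups. VEGF array 1 was the far array 7 times. It was the highest VEGF array for Alox8 (5.07), Tfap2c (7.51), Osmr (10.58), Socs3 (11.46), Gimap6 (8.01) and Tmprss11a (3.84), and the lowest for Vegfd (8.37). IL-22-Fc array 1 was the far array 6 times. It was the lowest for Fetub (9.37), Klk11 (9.03) and Krt15 (9.35), and the highest for Hbegf (9.39), Hey1 (6.23) and Col4a1 (11.75). Of the other IL-22-Fc arrays, array 2 was far for Saa2 (5.61) and Serpinb12 (8.97), array 4 for Flg (10.11), Alox12e (6.08) and Elf5 (5.84), and array 5 for Dsc1 (10.22) and Fbn2 (8.95). VEGF array 4 was far for Il20ra (5.93), Rgs5 (9.73) and Acta2 (12.89), and VEGF array 2 for Gsdma (7.13).

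The difference between the treatments itself differed between day 7 and 24 h (limma, day 7 minus 24 h) for 1608 probe sets. Toward IL-22-Fc it moved by 4.65 for Defb3, 3.91 for Sprr2f, 3.69 for Uox, 3.44 for Serpinb3a, 3.39 for Lce3a and 3.36 for Alox8. Toward VEGF it moved by -4.62 for Krt2, -3.30 for Esm1, -2.87 for Kcne3, -2.70 for Tmem255a, -2.53 for Abcb1a and -2.48 for Aplnr. Krt2, Kcne3, Tmem255a and Abcb1a were near background with IL-22-Fc at day 7, and Alox8 with VEGF, so their sizes and rank rest on values at background. The mice, the number of doses and the time differ together between these groups and cannot be told apart.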

How the results depend on the processing

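The count of 1752 genes at day 7 lay between 1168 and 1784 under the other arrays in the fit, normalizations, offset, filters, weights, variance model and 5′ covariate, and was 1667 at an adjusted p under 0.01. At 2-fold it was 611 (408 higher with IL-22-Fc and 203 with VEGF), and with limma's treat test against 1.5-fold 537 (363 and 174). An unpaired t-test gave 6439 probe sets at an unadjusted p under 0.05 (3362 and 3077). After Benjamini-Hochberg adjustment it gave 3853 (2062 and 1791), and neither count used a fold threshold. The methods name this test for data other than the arrays, and the legends use it for single genes. The share higher with IL-22-Fc was 55.9% in the limma fit and 66.8% at 2-fold. At 2-fold the count was 26 at 24 h, in place of 89, and 576 for the difference between times, in place of 1608. Leaving out each array in turn gave 1687 to 1897 genes at day 7, 65 to 94 at 24 h and 1492 to 1745 for the difference between times. No result changed direction. Of the 171 named genes called, 131 stayed called under every alternative that held them. The filter on a mean log2 of at least 6 left 149 of the 179 named genes. treat lost 38. All 42 arrays in the fit lost Tchh, Krt6b, Socs1, Col11a1, Chil3, Col1a1 and Adgre1, and an offset of 32 lost Saa2, Serpinb9, Il20ra, Socs1, Vwf, Zbtb46 and Arg1. The cause was not tested. No paired analysis was possible because the replicate numbers only follow the order of the arrays. Changes of 1.5-fold were found less often than larger ones on simulated data, in large part because the fold threshold lies at that size. A gene not called may still differ.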

Other observations

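Some gene families outside the lists, chosen after their values were seen and given as a description, were also divided. Of 14 connexins, the subunits of gap junctions, 4 were higher with IL-22-Fc and 2 with VEGF. Gjb6 differed by 2.09, Gjb2 by 1.75 and Gja1 by 0.90, and Gjb1, near background with VEGF, was the fourth, while Gja4, a connexin of arterial endothelium, differed by -1.63 and Gjc1 by -1.19. All 3 measured subunits of soluble guanylate cyclase, the nitric oxide receptor of smooth muscle and pericytes, were higher with VEGF, with differences of -1.84 for Gucy1a1 and -1.40 for Gucy1a2, which was near background with IL-22-Fc, and levels of 5.43 ± 0.17 against 6.93 ± 0.28 (SD, n = 5) for Gucy1b1. Of 8 GIMAP GTPases 4 were higher with VEGF and 0 with IL-22-Fc, namely Gimap4 (-2.31), Gimap6 (-1.34), Gimap1 (-1.21) and Gimap8 (-1.15).

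Of 346 solute carriers 26 were higher with IL-22-Fc and 11 with VEGF, with a median difference of -0.0057. Over all probe sets 4.74% and 3.73% were called, so these counts describe single genes and are not read as a trait of the family. Those higher with IL-22-Fc included Slc5a8, a sodium-coupled monocarboxylate transporter (3.14), Slc5a1, the sodium-glucose cotransporter (2.71), Slc7a11, the cystine-glutamate antiporter (2.29), Slc6a20a, a proline transporter (2.27), and Slc26a4, the anion exchanger pendrin. Of 12 transmembrane serine proteases 5 were higher with IL-22-Fc and 0 with VEGF, among them Tmprss11a (2.33), Tmprss11g (2.17), Tmprss4 (1.37) and Tmprss13 (1.15). Of 7 gasdermins 2 were higher with IL-22-Fc, Gsdma (1.99) and Gsdmc2 (1.62). Slc26a4, Tmprss11a, Tmprss11g and Gsdmc2 were near background with VEGF, so their differences hold no fold.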
